A study of Populus sp. cv. 'Okanese' with 18 samples.

Results

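Leaves of well-watered hybrid poplar and of trees held at moderate drought were compared in the early evening (EE). The comparison took the 3 libraries labelled 50 % SWCg at 16 h (EE50 A, B and C) and the 3 labelled 80 % SWCg at 16 h (EE80 A, B and C), which are 6 of the 18 libraries in the series. They were chosen by their labels alone. SWCg expresses the soil water by weight relative to field capacity, and 80 % SWCg was the well-watered control. The other 12 libraries were from leaves taken at 16 h at 30 % SWCg (EE30) and at 10 h, in the late morning (LM), at 30, 50 and 80 % SWCg (LM30, LM50 and LM80).

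All trees were Populus × ‘Okanese’, a single hybrid cultivar raised from cuttings, so the groups shared 1 genotype. Trees grew in a greenhouse under a photoperiod of 15 h for 42 days before water was withheld. Each pot was then dried to its target weight and kept there by daily watering until day 21 of the treatment. By its label, the leaf sampled was the first to develop under the treatment, and the leaves of EE50 therefore formed at reduced soil water. Whether the libraries of a group came from different trees is not stated in the sources used here, and the p-values below measure only how far libraries spread.

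Leaves that grow under a long, steady water deficit can adjust their growth and gene expression to it, and their transcriptome need not resemble that of a leaf that has just wilted. Many plant responses to drought depend on abscisic acid, a hormone that closes stomata and switches on protective genes. The circadian clock sets the hour at which a large part of the leaf transcriptome is expressed and also gates responses to abscisic acid. The question put by the comparison is whether a moderate deficit alters gene expression in the early evening.

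The 6 libraries held 17348563 to 41035506 counts (reads assigned to genes), with a mean that did not differ between EE50 and EE80 (two-sided exact permutation test, p = 1, where the smallest possible p is 0.1). Among 31033 genes of the table, 23700 were tested, and these lay above −2 and below 9 in average log2 CPM over the series. CPM, the level used throughout, is a count scaled by the library’s total over the tested genes and its TMM factor. The 20 highest genes held 11.7 % ± 0.372 (SD, n = 3) of all counts in EE50 and 11.1 % ± 0.521 (SD, n = 3) in EE80 (exact permutation p = 0.3). EE80 C was the deepest of the 6 libraries. The column names give all early evening libraries 1 number and all late morning libraries another. What the number marks is not stated, EE50 and EE80 share it, and it cannot be told apart from the hour. The table pairs its gene identifiers with no description, so functions are given only for clock genes that the study names, and leaf marker genes were not analysed here. In whole leaves a lower level cannot be told apart from a smaller share of the cells that express the gene.

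Moderate drought was accompanied by few changes that passed the test. In the quasi-likelihood test of edgeR over 23700 genes, 3 genes were called at an adjusted p below 0.05 (0.0127 % of genes tested), and all 3 were lower in EE50. No gene was called higher. Of the 3, 2 lie close together on chromosome 7, with 1 gene between them, and the other is on chromosome 1. At an unadjusted p below 0.05 the same test had 1511 genes (6.38 %), of which 893 were lower (3.77 %) and 618 higher (2.61 %) in EE50. With no difference in any gene, that threshold would take in a share of about 0.05. DESeq2 called 38 genes (5 higher and 33 lower), and the likelihood ratio test of edgeR with robust dispersions, the dispersion estimate named in the study’s methods, called 125 (33 higher and 92 lower). Both also called these 3 genes. Depending on the library left out, edgeR called between 0 and 6 genes: 2 without EE50 A, 0 without EE50 B, 0 without EE50 C, 0 without EE80 A, 6 without EE80 B and 2 without EE80 C.

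**Figure D1:**
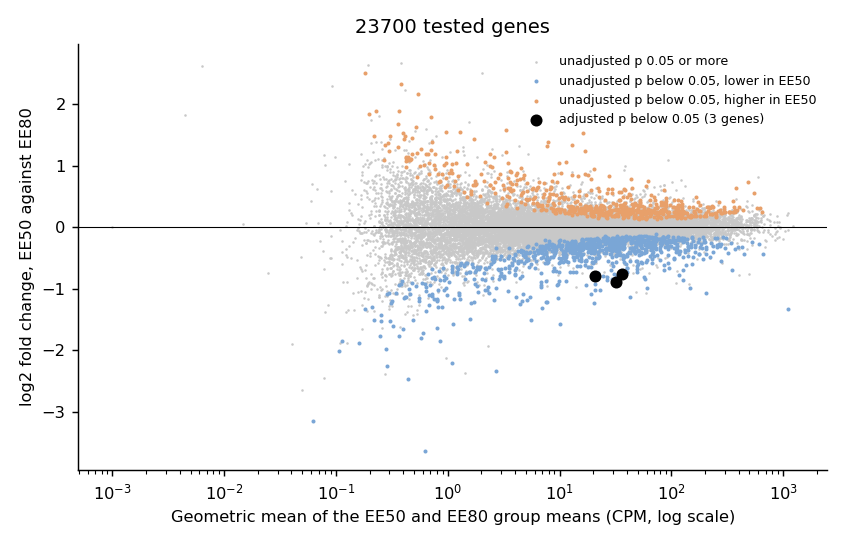
Each point is 1 of 23700 tested genes, placed by its level in the early evening (geometric mean of the EE50 and EE80 means in CPM, log scale, with means near 0 raised to a small floor) and its fitted log2 fold change of EE50 against EE80. Coloured points had an unadjusted p below 0.05 (893 lower, 618 higher), and the 3 black points, all below 0, passed the adjusted threshold.

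Potri.007G062302 (chromosome 7, 7081089 to 7083727 of the P. trichocarpa v4.1 genome, minus strand, 1 exon) had the lowest p. Its level was 25.6, 19.1 and 24.9 CPM in EE50 A, B and C and 49.0, 41.9 and 39.2 CPM in EE80 A, B and C. Every EE50 library lay well below every EE80 library. The fitted log2 fold change was −0.90 (SE 0.119, edgeR adjusted p = 0.0172, n = 3 per group). In the late morning the same gene was at 31.2 ± 0.766 CPM in LM50 and 31.9 ± 2.73 CPM in LM80 (SD, n = 3), and these groups overlapped. The difference between the evening and the morning response was −0.87 on the log2 scale (edgeR unadjusted p = 8.55e-05, adjusted p = 0.984), so a difference between times was not called.

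Close by, Potri.007G062242 (chromosome 7, 7072815 to 7074818, minus strand, 1 exon) was at 32.4, 26.5 and 24.8 CPM in EE50 and 53.4, 42.1 and 46.0 CPM in EE80. The groups were again apart, and EE80 A was the highest library for both genes. The log2 fold change was −0.76 (SE 0.105, edgeR adjusted p = 0.0172). In the late morning it was at 35.9 ± 2.30 CPM in LM50 and 39.2 ± 2.84 CPM in LM80 (SD, n = 3).

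Potri.001G105900 (chromosome 1, 8510988 to 8514249, plus strand, 4 exons) was at 15.6, 16.0 and 16.0 CPM in EE50 and 33.3, 24.2 and 25.0 CPM in EE80. The EE50 libraries were nearly alike, and EE80 A was set above EE80 B and C. The log2 fold change was −0.79 (SE 0.111, edgeR adjusted p = 0.0172). This gene had a strong daily difference, with 86.6 ± 3.50 CPM in LM80 and 76.2 ± 2.15 CPM in LM50 (SD, n = 3). At 30 % SWCg it stood at 49.9 ± 4.48 CPM in the late morning and 8.16 ± 1.01 CPM in the early evening (SD, n = 3). It was also called lower in LM30 than in LM80 (log2 fold change −0.79, edgeR adjusted p = 0.0140). That comparison shares no library with EE50 and EE80, though both come from 1 fit of all 18 libraries. At both hours its mean level was lowest at 30 % SWCg and highest at 80 % SWCg.

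Each of the 3 calls was lost in some fits. Potri.001G105900 was not called without EE50 A, and Potri.007G062242 was not called without EE80 C. None of the 3 was called without EE50 B, EE50 C or EE80 A, and none when the early evening libraries or the EE50 and EE80 libraries were fitted alone. Their fitted values changed little, with log2 fold changes of −0.97 to −0.78 for Potri.007G062302, −0.88 to −0.66 for Potri.007G062242 and −0.87 to −0.64 for Potri.001G105900 over all alternatives.

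**Figure D2:**
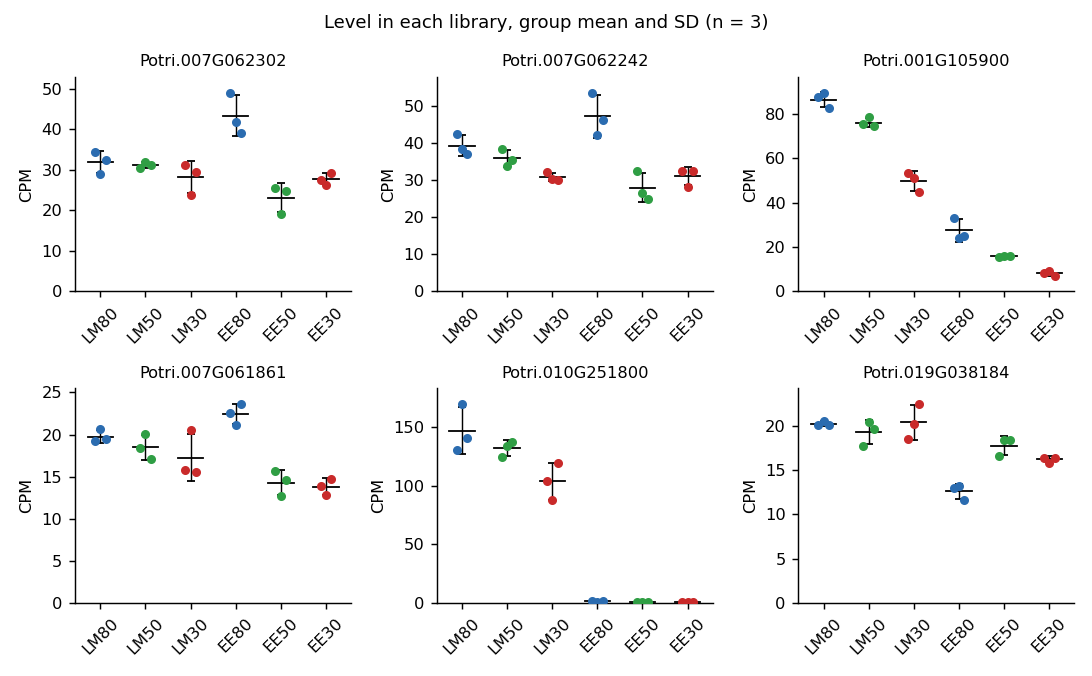
Level in CPM (y axis from 0) of 6 genes in each of the 18 libraries by group, with the group mean as a horizontal bar and the SD (n = 3) as an error bar. The upper row holds the 3 called genes, and in all 6 panels no EE50 library overlaps an EE80 library. The 6 genes were chosen by p on these libraries, so nothing is read from that (12.2 % of all tested genes were apart).

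The pair on chromosome 7 belongs to a longer stretch. From Potri.007G061741 to Potri.007G062542 (chromosome 7, 6908587 to 7181695, 273 kb) lie 7 consecutive genes of the table, all of which were tested. Each was lower in EE50 at an unadjusted p below 0.05, which 3.77 % of all tested genes were, and 2 were called. The stretch was noticed after the values were seen and is given as a description. Log2 fold changes ran from −1.30 to −0.58 with a median of −0.76, while the median over all tested genes was −0.00112. In 6 of the 7 genes the EE50 libraries all lay below the EE80 libraries, which held for 6.37 % of all tested genes, and Potri.007G062122 was the exception.

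The 7 genes ranged widely in level. After the 2 called genes came Potri.007G061861, at 15.6, 12.6 and 14.6 CPM in EE50 and 22.6, 21.2 and 23.6 CPM in EE80. Its groups were apart, with a log2 fold change of −0.65 (SE 0.109, edgeR adjusted p = 0.103). It was called by DESeq2 (adjusted p = 0.000103), by the likelihood ratio test (edgeR adjusted p = 0.000140) and with a replicate block (edgeR adjusted p = 0.0188). Potri.007G062542 was at 7.62, 6.80 and 4.71 CPM in EE50 and 9.50, 9.46 and 9.45 CPM in EE80, a log2 fold change of −0.58 (SE 0.159, edgeR adjusted p = 0.494). Its EE80 libraries were almost the same and its EE50 libraries spread.

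The other 3 genes were low. Potri.007G062122 was at 3.29, 1.61 and 1.87 CPM in EE50 and 2.66, 4.81 and 3.49 CPM in EE80, with EE50 A above EE80 A. Potri.007G062262 was at 2.13, 1.13 and 1.26 CPM in EE50 and 4.03, 2.90 and 2.37 CPM in EE80. Potri.007G061741 was at 0.732, 0.417 and 0.513 CPM in EE50 and 1.73, 1.58 and 0.955 CPM in EE80. Both of the latter were apart between groups but rested on few counts, and their edgeR adjusted p were 0.494 and 0.481.

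All 7 genes of the stretch were annotated with 1 exon, which 14.8 % of all tested genes were. In orientation 5 were on the minus strand and 2 on the plus strand, and the spans did not overlap. Potri.007G062242 ends just before Potri.007G062262 starts, at a distance shorter than a read. Reads with several alignments, or over more than 1 gene, are left out by the counter, and whether these genes have near-identical copies elsewhere was not analysed here. The nearest tested gene lay 43.5 kb before the stretch and 443 kb after it. Of 24 flanking tested genes, 0 had an unadjusted p below 0.05 in the edgeR test (6.38 % of all tested genes had). Their log2 fold changes ran from −0.78 to 0.42 with a median of −0.04. A gene next to the stretch could not be lower at that threshold, since the run would then go on. Nothing is read from the 0.

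Summed over the 7 genes, the level was 87.4, 68.2 and 72.6 CPM in EE50 A, B and C and 143, 124 and 125 CPM in EE80 A, B and C. The means were 76.1 ± 10.0 and 131 ± 10.7 CPM (SD, n = 3), 1.72-fold higher in EE80. EE30, which is set against the same EE80 libraries, had 85.0 ± 6.25 CPM (SD, n = 3). In the late morning the sums were 106 ± 3.77 CPM in LM80, 96.0 ± 1.79 CPM in LM50 and 85.7 ± 3.12 CPM in LM30 (SD, n = 3), and the 3 groups did not overlap. Over the single genes the morning log2 fold changes of LM50 against LM80 were −0.57 to −0.03 with a median of −0.42, and 1 of 7 had an unadjusted p below 0.05 (1.97 % of all tested genes had). The difference between the evening and morning responses had an unadjusted p below 0.05 for 3 of the 7 genes (4.43 % of all tested genes), and no adjusted p was below 0.984 (edgeR).

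**Figure D3:**
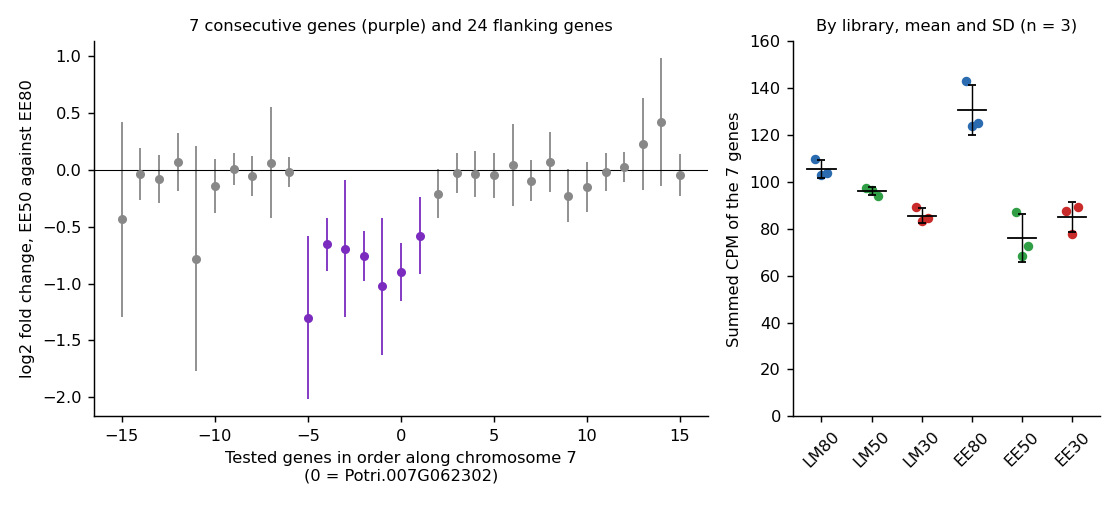
Left, log2 fold change of EE50 against EE80 with its 95 % interval for 31 tested genes in their order along chromosome 7, the 7 consecutive genes in purple and 24 flanking genes in grey. Right, the summed level of the 7 genes in CPM in each library (mean and SD, n = 3), with EE50 at 68.2 to 87.4 CPM and EE80 at 124 to 143 CPM.

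Runs of this kind were rare elsewhere. Of the runs of consecutive tested genes that were all lower at an unadjusted p below 0.05, 1 held 7 genes, 2 held 4 genes and 4 held 3 genes. Of the runs that were all higher, 1 held 3 genes and none was longer. The 2 runs of 4 genes were on chromosome 1 (9612426 to 9638326) and chromosome 13 (15634477 to 15649941), and neither held a called gene. A run of 3 lower genes lay close by on chromosome 13 (15586413 to 15598730).

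Below the called genes, the genes of lowest p in each direction were taken up to 12 lower and 12 higher. The EE50 and EE80 libraries were apart in all 24, beside 12.2 % of all tested genes (6.37 % lower and 5.84 % higher in EE50), but the 24 were chosen by p on these libraries and nothing is read from that count. Among the 9 lower genes that were not called, edgeR adjusted p was at least 0.103, and it was 0.108 to 0.481 for the 12 higher genes. Log2 fold changes were −1.85 to −0.38 in the lower genes and 0.33 to 1.52 in the higher genes.

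Of the genes with higher values, Potri.019G038184 (chromosome 19) had the lowest p, with 16.6, 18.4 and 18.4 CPM in EE50 and 13.0, 13.2 and 11.6 CPM in EE80 (log2 fold change 0.50, SE 0.0861, edgeR adjusted p = 0.108). The evening groups were apart and close within themselves, and EE50 lay between EE80 and the late morning level of 20.3 ± 0.298 CPM in LM80 (SD, n = 3). The widest spread was in Potri.010G021800, with 17.9, 22.8 and 42.4 CPM in EE50 and 4.82, 13.7 and 10.5 CPM in EE80 (log2 fold change 1.52, SE 0.367, edgeR adjusted p = 0.481). Potri.001G012200, a long gene of 44 exons on chromosome 1, was at 70.0, 79.4 and 87.6 CPM in EE50 and 53.9, 55.7 and 54.9 CPM in EE80 (log2 fold change 0.53, SE 0.107, edgeR adjusted p = 0.278). Its EE80 libraries differed little, and all 3 EE50 libraries were higher.

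Of the genes with lower values, several were abundant in the late morning and scarce by the early evening. Potri.010G251800 (chromosome 10) was at 131, 169 and 141 CPM in LM80, at 1.94, 0.912 and 1.91 CPM in EE80 and at 0.488, 0.537 and 0.373 CPM in EE50. The EE50 values rest on 8, 9 and 8 counts, and the log2 fold change was −1.85 (SE 0.341, edgeR adjusted p = 0.158). It was called by DESeq2, by the likelihood ratio test and, in the quasi-likelihood test, without EE80 B.

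Potri.015G022100 (chromosome 15) was another such gene, at 347 ± 76.5 CPM in LM80 (SD, n = 3). In EE80 it was at 10.8, 8.96 and 9.12 CPM and in EE50 at 4.03, 5.43 and 5.13 CPM (log2 fold change −0.98, SE 0.180, edgeR adjusted p = 0.158). Potri.005G072800 had the opposite daily pattern, at 4.61 ± 1.72 CPM in LM80 (SD, n = 3) against 35.3, 23.1 and 30.6 CPM in EE80 and 14.9, 16.6 and 12.6 CPM in EE50 (log2 fold change −1.02, SE 0.206, edgeR adjusted p = 0.278).

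Daily patterns were looked at over the whole transcriptome with EE30 and LM30, which take no part in the comparison but share its fit. A gene was taken as lower or higher in the evening by the edgeR call of EE30 against LM30. Both groups were at 30 % SWCg, so this difference also holds any effect of severe drought that differs between the hours. Such an effect was not separated from the hour here. Potri.007G061861 was called lower in EE30 than in LM30, but its mean was 22.4 CPM in EE80 and 19.8 CPM in LM80. Of the 12 lower genes named by p, 8 were called lower in EE30 than in LM30 and 1 higher. Of the 12 higher genes, 6 were called higher in EE30 and 1 lower. Of the 893 genes lower in EE50 at an unadjusted p below 0.05, 443 (49.6 %) were called lower in EE30 than in LM30 and 18.1 % higher. Of the 618 genes higher in EE50, 39.6 % were called higher in EE30 and 15.9 % lower. Over all tested genes the shares were 25.1 % lower and 28.3 % higher.

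At an unadjusted p below 0.05, the share of genes lower in EE50 was larger in bins of steeper fall from LM30 to EE30. Among 183 genes that were lower in EE30 than in LM30 by over 3 log2 units, 16.9 % were lower in EE50 at an unadjusted p below 0.05 and 0.546 % were higher. In the same bin 6.56 % were lower in LM50 than in LM80 at an unadjusted p below 0.05 and 0 % higher, and the median log2 fold change of LM50 against LM80 was −0.08. Whether this bin differs between the hours was not tested. Sorting by EE30 against LM30 would also favour lower values in EE50 and higher values in LM50 if moderate and severe drought share a response. Among 6795 genes with a log2 fold change of EE30 against LM30 of 0 to 0.5, the shares were 2.18 % and 3.00 %. Among 281 genes that were higher in EE30 by 3 log2 units or more, they were 1.42 % and 4.27 %. The median log2 fold change of EE50 against EE80 went from −0.19 in the first of these bins to 0.08 in the last. Level moved with the bins too, since the median level in EE80 was 1.71 CPM in the first bin and 9.53 CPM in the last, and its part in the result was not tested.

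Single libraries showed the same shift on a small scale for genes lower in EE30 than in LM30. For 576 genes lower in EE30 than in LM30 by over 2 log2 units, the median difference from the EE80 mean was −0.13, −0.17 and −0.13 in EE50 A, B and C and 0.04, −0.10 and 0.05 in EE80 A, B and C. Measured in this way the groups did not overlap, but EE80 B came close to EE50. Taken over single pairs of an EE50 and an EE80 library, the median difference ran from −0.25 to 0.002. EE50 was therefore not lower in every pair. For 893 genes higher in EE30 by over 2 log2 units the values were 0.06, −0.01 and 0.11 in EE50 and −0.04, 0.07 and −0.02 in EE80. These groups overlapped.

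Across genes, the log2 fold change of EE50 against EE80 and that of EE30 against LM30 correlated weakly (Pearson r = 0.110, Spearman rho = 0.127, 23700 genes). Over 21028 genes with a mean above 1 CPM in EE50 and EE80 the values were 0.157 and 0.151. For LM50 against LM80 they were 0.0152 and −0.0261 over 23700 genes. Genes are not independent replicates, and the 18 libraries share 1 fit, so these values are descriptions. The fold change of EE30 against LM30 holds the evening effect of severe drought with a plus sign and the morning effect with a minus sign. A response shared by moderate and severe drought would therefore raise the evening correlation and lower the morning one, whatever the daily pattern. The gap between the evening and morning correlations thus cannot show a link to daily pattern.

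**Figure D4:**
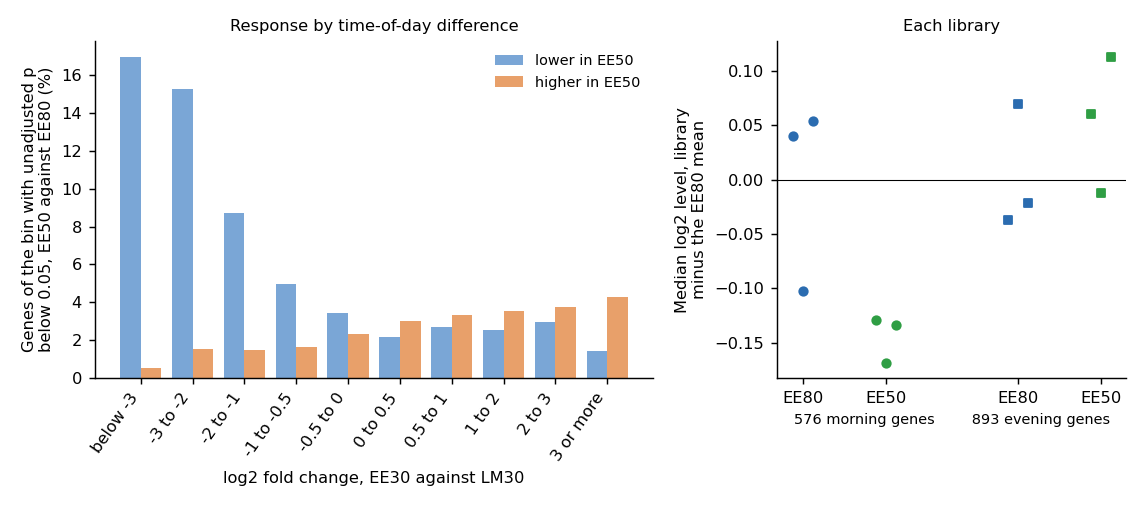
Left, share of tested genes (%) with an unadjusted p below 0.05 in EE50 against EE80, lower in blue and higher in orange, by the log2 fold change of EE30 against LM30. The blue share goes from 16.9 % in genes with the steepest daily fall to 1.42 % in genes with the steepest daily rise. Right, median log2 level of each EE80 and EE50 library minus the EE80 mean. The first set is 576 genes lower in EE30 than LM30 by over 2 log2 units (labelled morning genes). The second is 893 genes higher by over 2 log2 units (labelled evening genes). Against the EE80 mean the first set is apart between groups and the second overlaps. Between single EE50 and EE80 libraries, the median difference of the first set ran from −0.25 to 0.002.

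The 13 clock genes examined differed little between EE50 and EE80. In Arabidopsis, CCA1 is a transcription factor that peaks at dawn, the pseudo-response regulators PRR9, PRR7 and PRR5 follow one another through the day, GI and ZTL act together in the turnover of clock proteins, and LUX is part of the evening complex. The names were taken from the study. Of these 13 poplar genes, 0 were called in the edgeR test (0.0127 % of all tested genes were) and 1 had an unadjusted p below 0.05 (6.38 % of all tested genes had). Other clock genes, TOC1, ELF3 and ELF4 among them, were not analysed here. The gene with an unadjusted p below 0.05 was the PRR9 copy Potri.002G179800, with 130 ± 9.72 CPM in EE50 and 149 ± 19.1 CPM in EE80 (SD, n = 3; log2 fold change −0.20, SE 0.0872, edgeR adjusted p = 0.735). Its groups overlapped.

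All 13 fitted values were below 0, from −0.32 to −0.02 with a median of −0.13, while the median over all tested genes was −0.00112. Every 95 % interval of the 13 stayed within a 2-fold change in either direction. The PRR5 copy Potri.012G005900 was at 622 ± 72.1 CPM in EE50 and 775 ± 17.3 CPM in EE80 (SD, n = 3), and the PRR7 copy Potri.008G046200 at 176 ± 3.55 and 187 ± 4.19 CPM. In these 2 of 13 genes the groups were apart, beside 12.2 % of all tested genes, so the count is near the background. GI (Potri.005G196700) was at 463 ± 16.7 CPM in EE50 and 503 ± 49.0 CPM in EE80 (SD, n = 3), and its groups overlapped. The CCA1 copy Potri.017G144800, past its daily peak at this hour, was at 41.0 ± 6.85 CPM in EE50 and 47.0 ± 4.36 CPM in EE80, against 196 CPM as the mean of LM80.

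**Figure D5:**
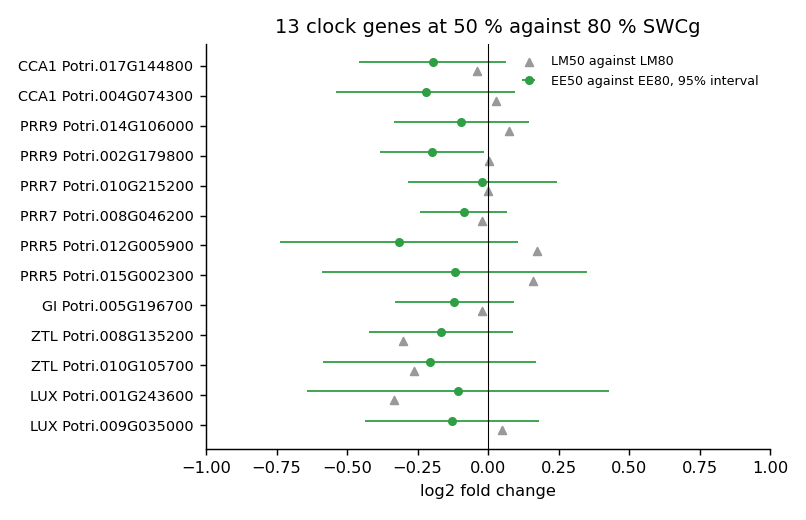
Log2 fold change at 50 % against 80 % SWCg of 13 clock genes, in the early evening (green points with 95 % intervals) and in the late morning (grey triangles). All green points lie between −0.32 and −0.02 and no interval reaches −1 or 1.

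The comparison at severe drought in the late morning offers a list of drought genes from other libraries. All 18 libraries share 1 fit, however, so the spread within EE50 and EE80 also entered these calls. Its part in the shares below was not tested. In LM30 against LM80, 16 genes were called (0.0675 % of tested genes), 12 lower (0.0506 %) and 4 higher (0.0169 %). Of the 12 lower genes, 11 had a lower fitted value in EE50 than in EE80, with a median log2 fold change of −0.32 (range −0.79 to 0.00189), and in 5 the evening groups were apart in that direction (6.37 % of all tested genes were). All 4 higher genes had a higher fitted value in EE50, with a median of 0.22 (0.06 to 0.50), and 2 were apart in that direction (5.84 % of all tested genes were). Only Potri.001G105900 among the 16 was called in EE50.

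By the p of EE50 against EE80, Potri.001G230600 came next among them. It was at 4.53 ± 0.0889 CPM in EE50 and 6.86 ± 1.10 CPM in EE80 (SD, n = 3; log2 fold change −0.60, SE 0.131, edgeR adjusted p = 0.392). Potri.015G147600 was at 40.8 ± 5.44 CPM in EE50 and 59.8 ± 9.01 CPM in EE80 (SD, n = 3; log2 fold change −0.55, SE 0.145, edgeR adjusted p = 0.481). Potri.003G192500 had the lowest such p among the genes called higher in LM30. It was at 9.66 ± 1.67 CPM in EE50 and 6.81 ± 0.736 CPM in EE80 (SD, n = 3; log2 fold change 0.50, SE 0.230, edgeR adjusted p = 0.773). The 3 genes were apart between EE50 and EE80, but they were chosen by p on these libraries and nothing is read from that. Their size at 50 % SWCg was below that in LM30, where the log2 fold changes were −0.68, −0.92 and 1.29. Whether the sizes differ was not tested.

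The other comparisons place the evening response at 50 % SWCg. EE30 against EE80, which shares the control libraries, had 460 called genes (1.94 % of tested genes), 264 lower (1.11 %) and 196 higher (0.827 %). The log2 fold changes of EE30 against EE80 were −0.64 for Potri.007G062302, −0.61 for Potri.007G062242 and −1.75 for Potri.001G105900, beside −0.90, −0.76 and −0.79 for EE50. The chromosome 7 genes thus had the larger fitted value at 50 % SWCg and the chromosome 1 gene at 30 % SWCg. Whether these sizes differ was not tested, and the genes were chosen by their p in EE50 against EE80. LM50 against LM80 had 0 called genes in edgeR, with 468 at an unadjusted p below 0.05 (1.97 %). The groups were apart for 6.29 % of genes there and for 12.2 % in the evening. With no difference, 3 against 3 libraries would be apart for a share of about 0.1 of genes. Whether the evening and morning shares differ was not tested.

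The test of the difference between the evening and the morning response to 50 % SWCg called 0 genes, with 1050 at an unadjusted p below 0.05 (4.43 %) and a smallest adjusted p of 0.984 in edgeR. DESeq2 called 2 genes, of which Potri.007G062302 was 1 (log2 difference −0.89, DESeq2 adjusted p = 0.0420), and the likelihood ratio test called 11. Across genes, the fitted responses at both times were all but unrelated (Pearson r = 0.0269, Spearman rho = −0.0144, 23700 genes). The 0 calls are those of the quasi-likelihood test.

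Sizes of difference were small throughout. The median absolute log2 fold change was 0.108 in the evening and 0.0883 in the morning, and the middle part of all evening values, between the quartiles, lay from −0.11 to 0.11. A log2 fold change beyond 1 in size was fitted for 277 genes, of which 195 (70.4 %) had a mean below 1 CPM in EE50 and EE80. Potri.013G120100 had the lowest fitted value of all, −3.64 (SE 1.33, edgeR adjusted p = 0.660), and was named after its values were seen. It was at 0.305, 0.179 and 0.0933 CPM in EE50 and 0.144, 0.0829 and 5.96 CPM in EE80, so that EE80 C alone was high and the groups overlapped.

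Some abundant genes varied as much within groups. Potri.006G232900, also named after its values were seen, was at 927, 770 and 409 CPM in EE50 and 2542, 939 and 1842 CPM in EE80 (log2 fold change −1.34, SE 0.507, edgeR adjusted p = 0.672). It was called by the likelihood ratio test (edgeR adjusted p = 0.0200). The groups were just apart, and LM80 alone spread from 247 to 1341 CPM. Potri.018G075200 was the reverse, at 12.3, 13.4 and 12.4 CPM in EE50 and 5.25, 4.48 and 4.74 CPM in EE80, with little spread in either group. Its log2 fold change was 1.39 (SE 0.404, edgeR adjusted p = 0.533) in the fit of all 18 libraries, where LM80 ranged from 70.9 to 176 CPM. With EE50 and EE80 fitted alone it was the only gene called (log2 fold change 1.39, SE 0.120, edgeR adjusted p = 0.0236). The likelihood ratio test called it too (edgeR adjusted p = 0.000147), and also for the difference between times (log2 difference 2.26, edgeR adjusted p = 1.53e-05).

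The precision of the comparison allows limits on most genes. The 95 % interval of the log2 fold change lay within −1 and 1 for 20056 of 23700 genes (84.6 %) and within a 1.5-fold change for 15606 (65.8 %). The median SE was 0.678 for genes below 0.3 CPM and 0.0940 for genes of 30 to 100 CPM, so changes in scarce genes could escape at this depth. As whole profiles, libraries differed by a root mean square of 0.392 log2 units within EE50, 0.403 within EE80 and 0.405 between the groups. The pseudo-F of the groups was 1.12 (exact permutation p = 0.2), in a design whose smallest possible p is 0.1 and which could not reach 0.05.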

How the data were processed

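RNA of 18 leaf libraries (NEBNext stranded, single-end reads of 100 bases) was measured, and 6 were compared here. Per the submitters’ processing notes and methods, reads were trimmed with Trimmomatic (version not given in the sources used here), mapped with HISAT2 2.2.1 and SAMtools 1.3.1 on the P. trichocarpa v4.1 genome, and assigned by featureCounts 2.0.1. The deposited table holds raw read counts per gene, not normalized by the authors. The file header names no strand option, so antisense reads count too. Per-sample columns left unused numbered 0.

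Counts were fitted in R 4.3.3 with edgeR 4.0.16: TMM, genes with average log2 CPM above −2 and below 9, 1 model of 6 groups with 12 residual degrees of freedom, the quasi-likelihood F test and Benjamini–Hochberg adjustment, called below 0.05. Non-overlap uses CPM. Scripts were tested on simulated data. Named genes were all called genes, the lowest p up to 12 per direction, the clock genes and genes called in LM30; genes of the chromosome 7 stretch, Potri.013G120100, Potri.006G232900 and Potri.018G075200 were chosen after their values were seen. The members and lists were chosen with earlier results of these data known. As alternatives, DESeq2 1.42.0, its size factors in edgeR, a likelihood ratio test on robust dispersions, filterByExpr or no filter, fewer groups, a block and leaving out libraries were run. Thinning EE80 C and leaving out libraries for the genes lower in EE30 than in LM30 were chosen after seeing the data. Planned lists by gene function were not analysed here. Figures were drawn with Python 3.11.15 and matplotlib 3.10.9.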

Additional observations from a re-analysis of the deposited data

How the results depend on the processing

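The count of genes called between EE50 and EE80 was 3. It was 38 with DESeq2, where 8271 adjusted p were not given, 125 with robust dispersions and a likelihood ratio test, 0 with early evening libraries alone (edgeR, 1699 at an unadjusted p below 0.05) and 1 with EE50 and EE80 alone, which was none of the 3. Leaving out 1 library gave 0 to 6 genes (0 without EE50 B, EE50 C or EE80 A, 2 without EE50 A or EE80 C, 6 without EE80 B), and a count of 0 there came with 910 to 1160 genes at an unadjusted p below 0.05 in edgeR. The cause was not tested. The 3 genes were called in each fit with DESeq2 size factors, no filter, filterByExpr or EE80 C thinned. Of 45 alternative values for the 3 called genes, 17 were not called and 0 reversed, with adjusted p up to 0.248. Of 315 values for the 21 other genes named by p, 32 were called and 0 reversed.

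The difference between times of day, with 0 calls in edgeR, had 2 with DESeq2 and 11 with robust dispersions and a likelihood ratio test. Leaving out 1 EE50 or EE80 library gave 0 in each case (edgeR, 669 to 1476 genes at an unadjusted p below 0.05). The LM50 and LM80 libraries were not left out in turn. The share of genes with groups apart was 12.2 % and, with DESeq2 size factors, 12.1 %. The median EE50 difference of the 576 genes lower in EE30 than in LM30 by over 2 log2 units was −0.10. It was −0.16 to −0.08 when 1 library was left out.

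Deviations from the group means of EE50 and EE80 libraries with the same letter correlated at 0.243 (A), 0.246 (B) and 0.0792 (C). All 3 values were positive, and libraries with different letters were not compared in this way. Whether the letters pair libraries was not tested, and the main fit does not pair them. With a replicate block, edgeR called 4 genes, the 3 and Potri.007G061861 (adjusted p = 0.0188), and 0 for the difference between times (1435 at an unadjusted p below 0.05). For EE50 against EE80, the block gave 2027 genes at an unadjusted p below 0.05, beside 1511 in the main fit. Depth limits what can be said of scarce genes.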
